A study of Mus musculus with 3 samples.

Results

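The dendritic cells of the injured tendon were 130 cells of the 4978 that passed the filter on cells in the tendon injury library, or 2.61% (exact Clopper-Pearson 95% interval 2.19 to 3.09%), and of 9002 such cells in all 3 libraries. They were chosen by marker transcripts. A cell was selected on at least 30 UMIs (unique molecular identifiers, each standing for 1 captured transcript) of H2-Aa, H2-Ab1 and H2-Eb1 together per 10000 UMIs, at least 1 UMI of Flt3 or Cd209a, fewer than 10 UMIs of C1qa, C1qb and C1qc together per 10000, no Cd79a UMI, and S100a8 and S100a9 below 2% of its UMIs. Cells first had to show at least 200 genes and at most 20% of UMIs from mt- genes, those of the mitochondrial genome.

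The series held 1 single-cell RNA-seq library each from the tendon injury site, blood and bone marrow of mice aged 10 weeks, none of them sorted. The study's methods name male C57BL/6J mice, and all 3 tissues were taken 3 days after a burn to the back together with a full transection of the Achilles tendon, an injury after which extraskeletal bone forms at the tendon. The injury site was digested with enzymes at 37 °C, blood cells were collected on a Ficoll gradient, and marrow was flushed, so that tissue, library and handling cannot be told apart. With 1 library per tissue and the number of mice pooled not given in the sources used here, no test was possible, and every interval below covers counting error only.

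Dendritic cells are the antigen-presenting cells that carry peptides from a tissue to lymph nodes and there start T-cell responses. Conventional dendritic cells are commonly divided into cDC1, which take up dead cells and present their antigens on MHC class I, and cDC2, which present mainly on MHC class II, both of them dependent on the growth factor receptor Flt3. Plasmacytoid dendritic cells (pDCs) are specialised for interferon production, and monocytes entering inflamed tissue can take on class II and Cd209a. On maturation, a dendritic cell turns on the lymph node homing receptor Ccr7 and the actin-bundling protein fascin (Fscn1).

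The tendon library held 90621052 UMIs in 5629 barcodes, blood 22542581 in 2241, and marrow 49580625 in 1855. Tendon and blood shared 6 barcodes, tendon and marrow 1, and blood and marrow 2, none of them a tendon dendritic cell. The 130 dendritic cells had a median of 10272 UMIs (lowest 2476, highest 31082) and 2304 genes, and 1431624 UMIs in all. They were set beside 693 monocytes low in complement C1q (C1q below the limit above, at least 1 UMI each of Csf1r and Ccr2, class II under 30 per 10000, no UMI of Flt3, Cd209a or Cd3e), with a median of 11211 UMIs, and 1427 C1q macrophages (C1q at least 10 per 10000, at least 1 Csf1r UMI, no UMI of Flt3, Cd209a or Cd3e), with a median of 14038, both under the same limits on Cd79a, S100a8 and S100a9. Another group was 149 class II-high cells that met every part of the rule but had no UMI of Flt3 or Cd209a, with a median of 10587 UMIs. For the background of free RNA, 496 fibroblast-like cells of the same library (Col1a1, Col1a2 and Col3a1 together at least 100 UMIs per 10000, no Ptprc UMI) were used.

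The values that chose the cells are a description. Class II UMIs of the 3 genes ran from 31.8 to 565 per 10000, with a median of 274, against a median of 107 in the class II-high cells without Flt3 or Cd209a and 0 in monocytes and macrophages. Only 5 dendritic cells lay between 30 and 60, the highest cell shut out by this limit alone was at 28.9, and lowering it to 15 would have added 12 cells. Flt3, the receptor tyrosine kinase of dendritic cell development, had a UMI in 89 cells and Cd209a, a C-type lectin of the DC-SIGN family, in 77, so that 53 cells had Flt3 only, 41 Cd209a only and 36 both. The threshold on these 2 genes carried most of the uncertainty of membership, since 42 cells entered on 1 UMI, 21 on 2 and 67 on 3 or more. C1q was at 0 in 99 cells and reached 8.58 per 10000 at most, while the nearest cell shut out by C1q was at 21.2. Flt3 lies at chr5:147330741-147400489 and Cd209a at chr8:3743397-3748984, both on the minus strand, and H2-Ab1 and H2-Eb1 lie at chr17:34257689-34269419 and chr17:34305867-34316674 (GENCODE M21 on GRCm38, the assembly of mm10, matched by Ensembl identifier).

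**Figure D1:**
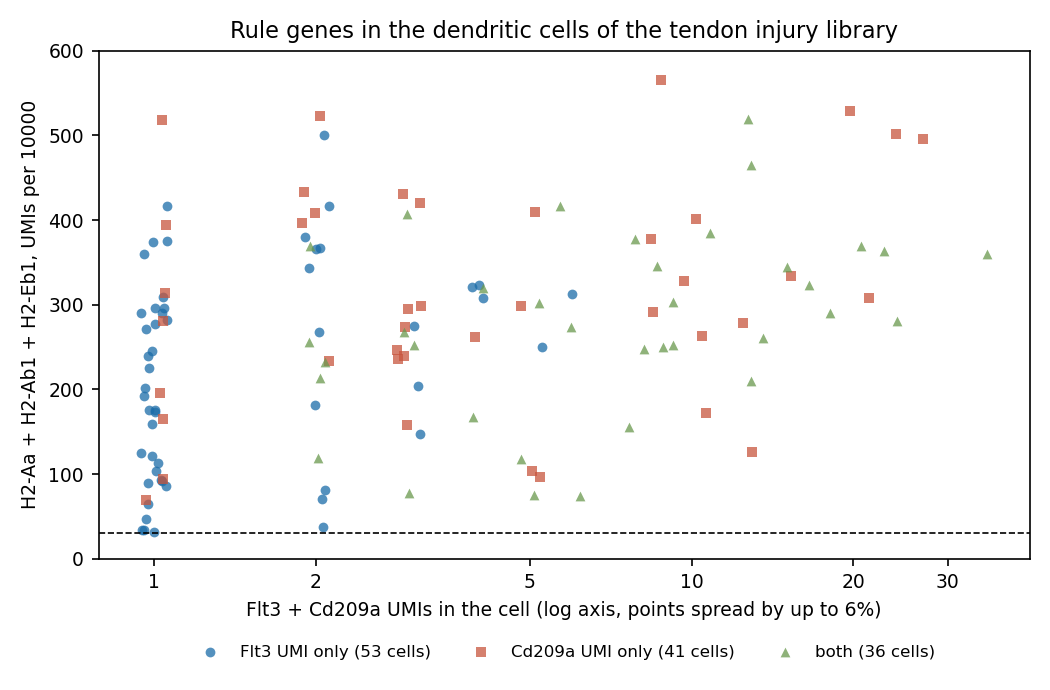
Each point is 1 of the 130 dendritic cells, with its Flt3 and Cd209a UMIs on the x axis (log) and its H2-Aa, H2-Ab1 and H2-Eb1 UMIs per 10000 on the y axis, the dashed line marking the threshold of 30. The 53 cells with Flt3 only sit at few UMIs, whereas the cells with Cd209a reach 34.

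The label was checked against markers. Cd74, the invariant chain that guides class II to the endosome and was no part of the rule, had a UMI in all 130 cells, with 19.99 UMIs per 10000 in the lowest, 193 in the median and 473 in the highest cell. Itgax, which encodes CD11c, stood at 39.8 CPM (30.2 to 51.6) over all dendritic cells, CPM being UMIs of the gene per 1000000 UMIs of the summed group and the bracketed range its exact Poisson 95% interval, against 3.79 in monocytes and 3.92 in C1q macrophages. Cd74 acts with the class II genes that chose the cells, so its presence in all of them follows in part from the rule. It was also at 10987 CPM in the class II-high cells without Flt3 or Cd209a, against 19803 in dendritic cells. Zbtb46, the transcription factor of conventional dendritic cells, was sparse, with 11 UMIs in 10 cells. The label did not cover all cells equally: 63 of the 130 had a UMI of at least 4 of the 12 monocyte and macrophage markers searched. The 67 others were also set against both groups alone, as given after the first comparison.

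Defining genes of other lineages were at or near 0. Of 11 T and NK cell markers found in the files, 9 had no UMI in any dendritic cell, including Cd3e, Nkg7 and Ncr1, where 0 UMIs allow up to 2.10 CPM (3 counts over the group), and the other two, Cd4 and Cd8a, had 1 and 3. Of 8 B cell markers 5 were at 0, Cd79a by the rule, the most abundant being Cd79b at 9.08 CPM. The 3 Langerhans cell markers summed to 2.10 CPM with Cd207 at 0. Mast cell and basophil markers had 1 UMI in all, with 7 of 8 at 0, and 5 of 5 red cell markers were at 0. The 12 fibroblast and tenocyte markers summed to 85.9 CPM (most abundant Col3a1, 19.6 CPM; Pdgfra and Scx at 0), far below 39598 in the fibroblast-like cells and below 2275 in the C1q-low monocytes. Keratinocyte markers summed to 39.8 CPM (most abundant Krt14, Krt1 at 0), endothelial and mural markers to 25.1 (most abundant Acta2, Myh11 at 0) and neutrophil markers, S100a8 and S100a9 included, to 73.3 (most abundant S100a8, Ly6g and Camp at 0). Keratinocyte markers stood at 679 CPM in the C1q-low monocytes. Genes of skin and tendon that were lower in dendritic cells than in monocytes move with these marker levels, and the part of RNA from such cells in the result was not tested.

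Against the C1q-low monocytes, 608 of 10425 genes with at least 20 UMIs in both groups together were past 2-fold higher in dendritic cells (5.83%) and 2067 past 2-fold lower (19.8%). Against the C1q macrophages 786 of 11610 were higher (6.77%) and 2798 lower (24.1%). With the 95% counting interval of the ratio also required to lie off equality, the counts were 548 and 1542 against monocytes, and 685 and 2069 against macrophages. The median log2 ratio over all genes was -0.27 and -0.35, beside which the list medians are read. Counts of list members below are likewise read beside the shares of all genes, 5.83% higher and 19.8% lower against monocytes, 6.77% and 24.1% against macrophages. Among the 67 dendritic cells with fewer than 4 monocyte and macrophage markers, 747 genes were higher and 2115 lower than in monocytes, and the list medians were 5.38 for class II presentation, 1.29 for interferon-stimulated genes, -2.34 for chemokine ligands and -0.66 for chemokine receptors, the last below 0 here and above 0 over all 130. After subtracting the shift of all genes the counts were 889 higher and 1543 lower against monocytes, and 1269 and 1875 against macrophages. A gene with no UMI in a group entered at the floor of 3 counts over that group. Such a gene passed the limit of 20 UMIs through the other group alone, and its direction is a description only.

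Most markers on the 4 lists of dendritic cell subsets and states were higher than in either group. Of the cDC1 markers 9 of 9 measured were past 2-fold higher than in monocytes (median log2 ratio 3.70) and 8 of 9 than in macrophages (3.92), of the cDC2 markers 5 of 6 (3.22) and 6 of 6 (2.59). Among the 67 cells with fewer than 4 monocyte and macrophage markers the cDC2 medians were 2.21 and 1.42, and the log2 ratio of Mgl2 to monocytes was 4.88 against 7.95 over all 130. Markers of mature dendritic cells were past 2-fold higher for 5 of 5 (6.06) and 6 of 6 (4.48), and pDC markers for 4 of 5 (6.93) and 4 of 5 (4.14), the pDC median against monocytes being -0.97 with class II of at least 60 per 10000. Naaa, a lysosomal amidase found in cDC1, was at 242 CPM (217 to 269) against 58.6 in monocytes and 65.1 in macrophages, with 70.8% of its UMIs in the 20 cells placed below as cDC1-like and a level of 80.6 CPM in the 73 unassigned cells. Xcr1, the cDC1 chemokine receptor at chr9:123852315-123862029, had 15 UMIs, and Clec9a, at chr6:129408862-129424763, 45. Single cells are placed by these lists below.

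The class II presentation genes were the most abundant of the lists in dendritic cells, at 51958 CPM in sum, and their higher level than in monocytes follows in part from the rule, which used H2-Aa, H2-Ab1 and H2-Eb1. Of the 9 members outside the rule, 8 were past 2-fold higher than in monocytes and 8 than in macrophages, with median log2 ratios of 5.44 and 3.56. The exception in both was Ctss, the protease cathepsin S that trims the invariant chain, at 1491 CPM in dendritic cells, 1527 in monocytes and 1961 in macrophages. H2-Oa and H2-Ob encode the DO molecule, which restrains the peptide exchanger DM, and H2-Oa stood at 101 CPM (85.5 to 119) against 0.690 in monocytes and 0.280 in macrophages. H2-DMb2, a DM chain, was at 88.0 CPM (73.3 to 105) against 1.38 and 1.54. Ciita, the master regulator of class II transcription, was at 30.04 CPM (21.7 to 40.5) against 0.690 and 2.76. Of these, H2-Oa, H2-Ob and H2-DMb2 also separated dendritic cells from the class II-high cells without Flt3 or Cd209a, where they stood at 17.4, 9.01 and 13.5 CPM, log2 ratios of 2.54 (1.94 to 3.19), 2.29 (1.44 to 3.24) and 2.70 (2.03 to 3.44).

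As these genes were higher together, their promoters were examined for CCAAT, a box known from class II promoters, on both strands (CCAAT or ATTGG, with no other motif searched). RefSeq promoters on GRCm38.p6, from 250 bases before to 50 after the start, matched 9 of the 12 listed genes with 10 promoters, of which 7, each of another gene, held the letters, against 37.4% of all 32851 promoters of that length. H2-Ab1, Cd74 and Ciita had no entry, Ctss and Ifi30 did not hold the letters, and H2-DMa held them in 1 of its 2 promoters. A match is a description and says nothing of binding. The promoters of H2-Oa (chr17:34092129-34092428), H2-DMb2 (chr17:34144999-34145298), H2-Ob (chr17:34238655-34238954) and H2-Eb1 (chr17:34305617-34305916), all on the plus strand, are shown since the first 3 separated dendritic cells from every group above and H2-Eb1 held the letters in both orientations. Capitals mark CCAAT or ATTGG.
H2-Oa: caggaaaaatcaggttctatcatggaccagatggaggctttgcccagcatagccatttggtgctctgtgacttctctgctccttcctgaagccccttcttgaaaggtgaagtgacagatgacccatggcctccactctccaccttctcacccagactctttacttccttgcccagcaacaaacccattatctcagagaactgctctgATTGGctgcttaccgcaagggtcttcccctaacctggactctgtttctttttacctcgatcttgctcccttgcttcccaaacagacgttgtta
H2-DMb2: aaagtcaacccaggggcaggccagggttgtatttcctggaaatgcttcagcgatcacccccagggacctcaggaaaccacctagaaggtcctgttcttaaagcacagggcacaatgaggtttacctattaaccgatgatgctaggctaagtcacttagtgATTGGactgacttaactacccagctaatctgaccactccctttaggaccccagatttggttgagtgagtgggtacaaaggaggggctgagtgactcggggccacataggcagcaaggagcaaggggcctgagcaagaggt
H2-Ob: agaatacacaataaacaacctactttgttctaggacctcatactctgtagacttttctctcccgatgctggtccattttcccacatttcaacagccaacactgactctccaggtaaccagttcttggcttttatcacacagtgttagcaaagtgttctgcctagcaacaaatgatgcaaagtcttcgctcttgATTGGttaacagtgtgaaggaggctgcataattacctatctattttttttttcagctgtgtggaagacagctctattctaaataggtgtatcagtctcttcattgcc
H2-Eb1: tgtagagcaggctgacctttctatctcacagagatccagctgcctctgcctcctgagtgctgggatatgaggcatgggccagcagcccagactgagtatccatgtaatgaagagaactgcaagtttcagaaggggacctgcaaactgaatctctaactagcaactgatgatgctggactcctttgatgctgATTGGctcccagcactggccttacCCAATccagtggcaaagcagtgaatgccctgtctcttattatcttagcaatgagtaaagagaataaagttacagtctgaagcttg
ATTGG began 43 bases before the start in H2-Oa, 90 in H2-DMb2, 57 in H2-Ob and 59 in H2-Eb1, where CCAAT followed 35 bases before it.

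MHC class I genes differed less. Of 14, 4 were past 2-fold higher than in monocytes and none lower, with a median log2 ratio of 0.63, and 5 were higher than in macrophages. These were the peptide transporter genes Tap1 and Tap2, the immunoproteasome genes Psmb8 and Psmb9 and, against macrophages, the proteasome activator Psme1. Psmb8 was at 766 CPM (721 to 812) against 282 in monocytes and 230.2 in macrophages. The class I chain H2-D1 was at 1350.2, 1157 and 1121 CPM in the same order, within 2-fold.

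Several ligands that accompany antigen to T cells were higher. Of 12 co-stimulatory and co-inhibitory ligands measured, 6 were past 2-fold higher and 1 lower than in monocytes, and 8 higher and 2 lower than in macrophages. Cd83, a marker of activated dendritic cells, was at 309 CPM (281 to 339) against 67.5 and 67.6, and was found in 104 of 130 cells. Cd86, a ligand of CD28, was at 219 CPM (196 to 245) against 93.2 and 69.3. Tnfsf4, which encodes OX40 ligand, had 45 UMIs in 29 dendritic cells and none in the monocytes, a ratio of at least 91.2-fold with the floor of 3 counts. Vsir, the inhibitory ligand VISTA, was lower at 64.3 against 166 and 174 CPM, and Lgals9, galectin-9, was past 2-fold lower than in macrophages alone. Cd274, which encodes PD-L1, was at 18.9, 15.7 and 13.5 CPM and within 2-fold of both.

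**Figure D2:**
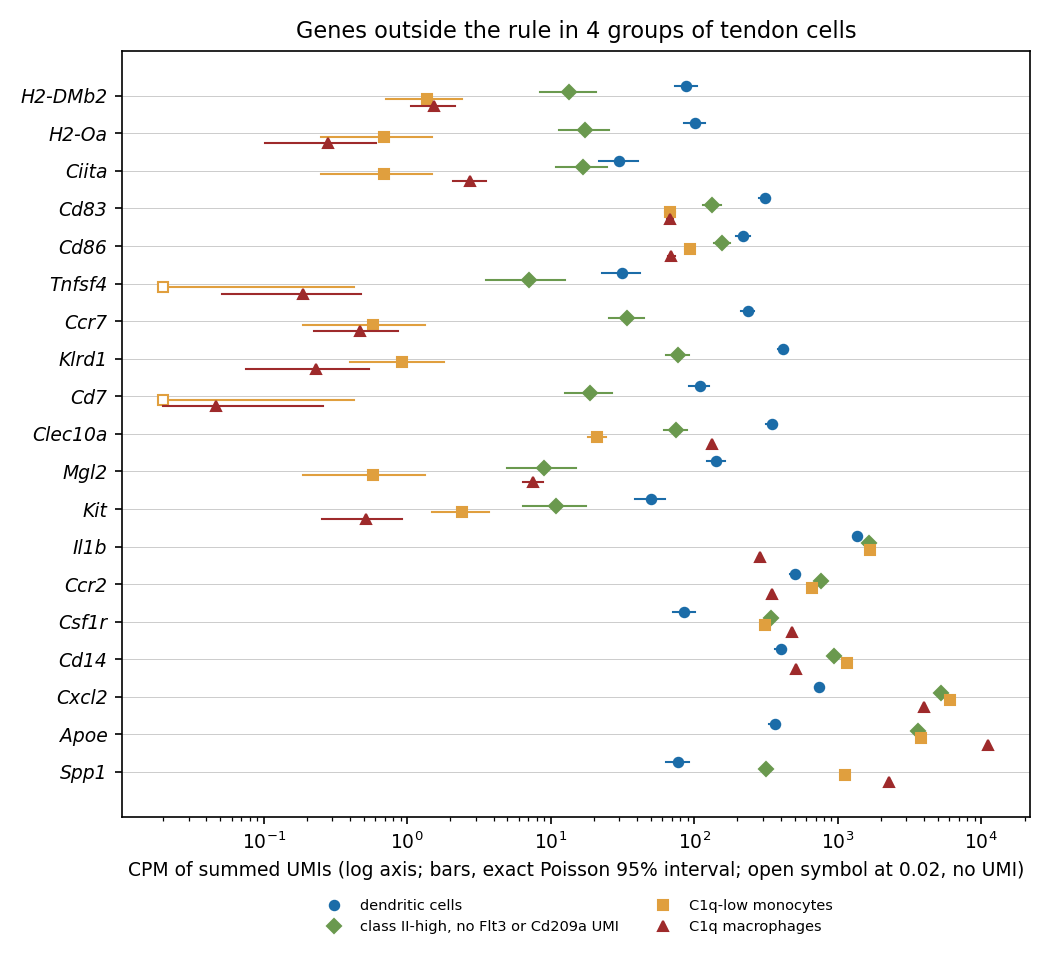
CPM of summed UMIs on a log x axis for genes outside the rule in dendritic cells (circles), class II-high cells without Flt3 or Cd209a (diamonds), C1q-low monocytes (squares) and C1q macrophages (triangles), with exact Poisson 95% intervals and open symbols for 0 UMIs. H2-Oa, Ccr7, Klrd1 and Cd7 are highest in dendritic cells, whereas Cxcl2, Apoe and Spp1 are lowest there.

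Among 10 chemokine receptors measured, 3 were past 2-fold higher than in monocytes (Ccr7, Ccr9 and Xcr1), beside 5.83% of all genes. The 2 lower were a share near the 19.8% of all genes. Against macrophages 4 were higher and 1 lower, beside 6.77% and 24.1% of all genes. The list median against monocytes was 0.37, and -0.66 in the 67 cells with fewer than 4 monocyte and macrophage markers. Ccr7 (chr11:99144196-99155077) stood at 235 CPM (211 to 262) against 0.575 in monocytes and 0.467 in macrophages, a log2 ratio of 8.68 (7.44 to 10.31) to monocytes. It was found in 42 cells, 32.3% of dendritic cells, and in 20.8% after each cell was thinned to 2000 UMIs, against 0% of fibroblast-like cells thinned likewise. Numbers of cells with a UMI are given at each cell's own depth, and the fibroblast-like cells, at a median of 31936 UMIs, were the measure of background after the same thinning. Clec10a was found in 34.6% of dendritic and 0% of fibroblast-like cells, Kit in 6.15% and 0%. Shares of Fscn1 (7.69% against 12.2%), Ifi205 (13.8% against 18.2%), Cxcl10 (4.62% against 6.61%), Mki67 (3.85% against 14.7%) and Top2a (3.08% against 12.6%) were no higher than in the fibroblast-like cells, which may express them, so that for these genes levels in named cells and not shares are read. Ccr9 and Xcr1 rested on 4 and 5 cells. Ccr2, the receptor by which monocytes leave the marrow, was within 2-fold at 504 CPM against 666 in monocytes, which the rule for monocytes required to have it. Ccr1, a receptor of inflammatory chemokines, was lower at 113 against 313 CPM.

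Of 15 C-type lectins, receptors for antigen uptake and sensing, 6 were past 2-fold higher than in monocytes and 3 lower, the latter a share near the 19.8% of all genes, and the list median of -0.26 was -1.12 in the 67 cells with fewer than 4 monocyte and macrophage markers. Clec10a and Mgl2, the galactose-type lectins of macrophages and cDC2, stood at 348 CPM (318 to 379.8) against 21.1 in monocytes and 133 in macrophages, and 142 CPM (124 to 163) against 0.575 and 7.52. Ly75, which encodes DEC-205, had 20 UMIs in 14 cells, and Clec9a, the cDC1 receptor for dead cells, was found in 16. Lower were Clec4d, Clec4e (Mincle) and Clec5a, with Clec4e at 121 CPM against 524 in monocytes. Of 13 Toll-like receptors and adaptors, 1 was higher (Tlr3, 15 UMIs) and 8 lower than in monocytes, and against macrophages none of 15 was higher and 9 were lower. Cd14, the co-receptor for lipopolysaccharide, was at 400.2 CPM (368 to 434) against 1152 in monocytes, and Tlr2, a receptor for bacterial lipoproteins, at 117 against 256.

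Growth factor receptors and transcription factors separated the lineages in part. Of 11 growth factor receptors measured besides Flt3, 2 were past 2-fold higher and 4 lower than in monocytes. Kit, the stem cell factor receptor, was at 49.6 CPM (38.7 to 62.6) against 2.41 in monocytes and 0.514 in macrophages, and was found in 31 cells. Csf1r, the receptor for the macrophage growth factor and part of the definition of both other groups, was 3.67-fold lower than in monocytes. Csf2rb, the shared chain of the GM-CSF receptor, was at 277 CPM against 151 in monocytes and 93.6 in macrophages, past 2-fold against macrophages only. Of 14 dendritic cell transcription factors, 5 were past 2-fold higher than in monocytes and 1 lower, beside 5.83% and 19.8% of all genes. Against macrophages 4 of 15 were higher and none lower, beside 6.77% and 24.1%. Batf3, needed for cDC1, was at 54.5 CPM (43.1 to 68.0) against 3.10 and 6.44, and Irf4, a factor of cDC2, at 27.9 CPM (19.96 to 38.0) against 2.99 and 4.34. Irf8, which directs cDC1 and pDC fate, was 3.23-fold higher than in monocytes but within 2-fold of macrophages, at 181, 56.1 and 134 CPM. The 20 cells placed below as cDC1-like held 69.9% of its UMIs, whereas the 73 unassigned cells, at 36.3 CPM, and the 24 cDC2-like cells, at 26.3, lay below the monocytes. Zeb2, a factor of monocytes, pDCs and cDC2, was the lower one, at 319.9 against 684 CPM in monocytes.

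Most secreted inflammatory signals were lower in dendritic cells. Of 18 chemokine ligands, 11 were past 2-fold lower and 6 higher than in monocytes, and 12 lower and 4 higher than in macrophages. The neutrophil attractant Cxcl2 was at 739.7 CPM (696 to 786) against 6090.1 in monocytes and 4009 in macrophages, and Cxcl1 at 5.59 CPM (2.41 to 11.0) against 517 and 365. The monocyte attractant Ccl2 was at 50.3, 350.5 and 765 CPM. Higher against both groups were Ccl5, Ccl17, Ccl22 and Cxcl9, attractants of T cells, each resting on few cells: Ccl5 was found in 15 cells, of which the 5 highest held 78.3% of its 281 UMIs, and Ccl17 and Cxcl9 in 3 cells each. Of 14 cytokines measured, 10 were lower and none higher than in monocytes. Tnf, an early inflammatory cytokine, was at 55.9 CPM against 299 and 226, Il10, which restrains inflammation, at 4.89 against 86.4 and 91.9, and Spp1, osteopontin, at 76.8 against 1125 and 2278. Il1b, interleukin-1 beta, was among the others, at 1362 CPM (1302 to 1424), within 2-fold of 1665 in monocytes and 4.76-fold above 286 in macrophages, with a UMI in 106 of 130 cells. Il12b, a subunit of IL-12, had 18 UMIs in 2 dendritic cells and none in monocytes or macrophages.

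Itaconate synthesis was a question of the study, and its enzyme gene Acod1 (listed as Irg1) had 3 UMIs in the dendritic cells, 2.10 CPM (0.432 to 6.12), against 12.6 in monocytes and 4.53 in macrophages. Of the 13 itaconate, arginine and glycolysis genes, none was past 2-fold higher and 8 were lower than in monocytes, among them Pkm, pyruvate kinase, at 302 against 853 CPM. Ldha, lactate dehydrogenase, was within 2-fold at 326 against 379.9. Of 15 immediate early and heat shock genes, which can mark handling of tissue, none was past 2-fold higher than in either group. Against monocytes 3 were lower, a share near the 19.8% of all genes, including Ier3 at 469 against 2545 CPM. Against macrophages 6 were lower, beside 24.1% of all genes.

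The monocyte and macrophage markers were lower over the group as a whole, 10 of 12 past 2-fold against each of the other groups. Csf1r is among the 10 in both, and its direction follows in part from the rules for monocytes and macrophages, which required a UMI of it. They summed to 1523 CPM in dendritic cells, 8269 in monocytes and 16773 in macrophages, the most abundant in dendritic cells being Cd14. Apoe, an apolipoprotein of tissue macrophages, was at 363 CPM (332 to 395) against 3792 and 11174, and 5 cells held 78.2% of its UMIs. Lyz2, lysozyme, was at 1811 CPM against 10588 and 9015. Ly6c2, a marker of inflammatory monocytes, was the 1 marker past 2-fold higher than in macrophages, at 58.0 against 23.2 CPM, but the 3 cells placed below as pDC-like held 53.0% of its UMIs, and without them it was at 27.6 CPM (19.6 to 37.7), within 2-fold of macrophages.

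Interferon-stimulated genes were higher than in monocytes, where 12 of 14 were past 2-fold higher (median log2 ratio 2.01), and near the macrophages, where 1 of 15 was higher and 1 lower (median -0.14). Few cells held most of these UMIs. Ifit1, an interferon-induced antiviral gene, was found in 6 cells, and the 5 highest cells held 92.8% of the UMIs of Rsad2 (viperin) and 70.3% of those of Isg15. Bst2, tetherin, was found in 40% of dendritic and 13.4% of fibroblast-like cells thinned to 2000 UMIs, and stood at 298 CPM against 127 in monocytes and 257 in macrophages. Of 17 cell cycle genes 1 (Top2a) was past 2-fold higher than in monocytes, a share near the 5.83% of all genes, and 1 lower, beside 19.8%. Against macrophages 5 were lower, beside 24.1% of all genes. Mki67 was found in 18 cells, of which 5 held 82.5% of its UMIs.

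**Figure D3:**
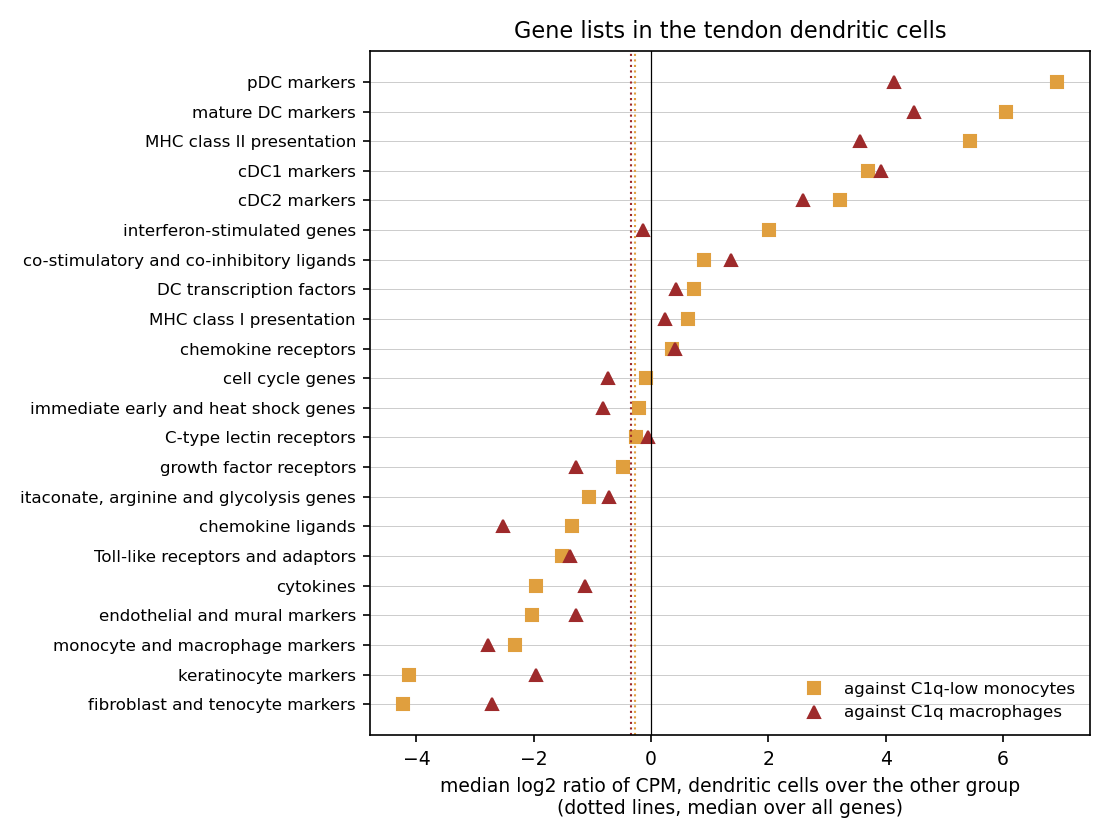
Median log2 ratio of CPM of each gene list with at least 5 measured genes, dendritic cells over C1q-low monocytes (squares) and over C1q macrophages (triangles), with dotted lines at the medians over all genes. Presentation and dendritic cell marker lists lie to the right, monocyte and macrophage markers and chemokine ligands to the left, and the pDC median against monocytes is -0.97 with class II of at least 60 per 10000.

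Without regard to lists, the genes with the largest ratios to monocytes, among those with at least 100 UMIs in both groups together and seen in 10% or more of the cells of whichever group was higher, were Klrb1b, Klrd1, Ccr7, Cd7, Mgl2, P2ry10, Ccl5, H2-Oa, Gpr171 and Klrk1. Of these, 8 were also among the 10 largest against macrophages, where the other two were Dpp4 (CD26) and H2-DMb2. Klrd1, Klrb1b and Klrk1 encode lectin-like receptors best known from NK cells, though the T and NK cell markers were at or near 0 as given above. Klrd1 (CD94) was at 416 CPM (383 to 450.4) against 0.920 in monocytes and 0.233 in macrophages, and was found in 81 cells, or in 41.5% after thinning against 0% of fibroblast-like cells. Klrb1b was found in 65 cells and Klrk1 (NKG2D) in 56. Cd7, a membrane protein of lymphocytes, had 156 UMIs in 41 dendritic cells and none in monocytes, at least 316-fold higher. P2ry10 and Gpr171, both G protein-coupled receptors, were at 159 and 170.4 CPM against 0.690 and 1.61 in monocytes.

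At the other end, the smallest ratios to monocytes included those of Wfdc21, Prg4, Cxcl1, Mgst1, Lcn2, Maf, Rnase4, Tfec and Pf4. Maf, a transcription factor of macrophages, had 3 UMIs in the dendritic cells against 140.2 CPM in monocytes and 513 in macrophages, log2 ratios of -6.06 (-8.34 to -4.51) and -7.93 (-10.21 to -6.39). Pf4, a platelet-type chemokine also made by macrophages, was at 21.7 CPM against 1250.0 and 4946. Prg4, lubricin of joint and tendon lining, was at 4119 CPM in fibroblast-like cells and was found in 11.0% of monocytes. Against macrophages the smallest were Gas6, Ednrb, Maf, Pf4, Cbr2, Tmem37, Rnase4, Gpnmb, Ccl8 and Folr2, the last, a folate receptor of resident macrophages, with no UMI in dendritic cells and 246 CPM in macrophages, at least 117-fold lower.

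The class II-high cells just outside the rule held fewer dendritic cell markers and more monocyte and macrophage markers. Of 7266 genes, 386 were past 2-fold higher in dendritic cells (5.31%) and 615 lower (8.46%), at like depth. All 8 cDC1 markers measured were higher, 4 of 5 cDC2 markers and 4 of 5 markers of mature dendritic cells, while 10 of 12 monocyte and macrophage markers were lower. These directions are a description only, since the rule parts the groups by UMIs of Flt3 and Cd209a, themselves dendritic cell genes. Of 14 cell cycle genes 8 were past 2-fold higher than in these cells, 6 of them with the interval off equality. Of the dendritic cells' UMIs of that list, 68.3% lay in 1 cluster of 22 cells described below. Of 11 co-stimulatory and co-inhibitory ligands 4 were higher, 3 of them with the interval off equality, and 1 lower. Ccr7 was at 34.1 CPM (25.6 to 44.6) in the class II-high cells, 6.90-fold below the dendritic cells, and Klrd1 at 77.2 CPM (64.0 to 92.4). Apoe was at 3640.0 and Cxcl2 at 5251 CPM, close to 3792 and 6090.1 in monocytes. Clec9a, Itgae and Cadm1, all cDC1 markers, had no UMI there, which allows up to 1.93 CPM. How many of these cells lacked both Flt3 and Cd209a UMIs through the depth of sampling was not tested.

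Among the dendritic cells, those with Flt3 only and those with Cd209a only differed. Of 4450 genes, 463 were past 2-fold higher with Flt3 (10.4%) and 179 with Cd209a (4.02% lower with Flt3), and 292 and 139 with the interval off equality, at median depths of 10818 and 9505 UMIs. All 6 cDC1 markers measured were higher in the Flt3-only cells, and 3 of 4 cDC2 markers were lower. Of the 9 listed markers of mature dendritic cells 5 were measured, all of them higher, 4 with the interval off equality. Directions between the groups are a description only, since the rule admits a cell without Cd209a only if it has Flt3. Fscn1 had 112 UMIs in 10 Flt3-only cells and none in Cd209a-only cells, at least 24.9-fold higher. It passed the limit on UMIs through the Flt3-only cells alone. Irf8 was at 406 CPM (356 to 460.0) against 27.5 CPM (13.7 to 49.3), and was found in 32 of 53 and 9 of 41 cells. Clec10a was at 109 CPM (83.7 to 138) against 426 CPM (364 to 495), in 16 and 34 cells. Psmb8, Psmb9, Psme1 and Psme2 were past 2-fold higher in the Flt3-only cells, Psmb8 at 1173 against 476 CPM. The chemokine receptors Ccr1 and Ccr2 were lower, Ccr2 at 324 against 661 CPM.

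The 10 largest ratios toward Flt3-only cells were those of Fscn1, Irf8, Aif1, Tbc1d4, Cd24a, Apoe, Fabp5, Wdfy4, Cd63 and Naaa, and the 10 toward Cd209a-only cells those of Rsad2, Ly6a, Ccl4, Tnip3, Clec10a, Slc15a3, Gcsh, Wfdc17, Ltb4r1 and Cxcl10. Cd24a, a surface protein of cDC1, was at 230.4 against 30.04 CPM, and Fabp5, a fatty acid-binding protein, at 1325 against 200.3. Ltb4r1, a leukotriene B4 receptor, was at 66.8 against 190.3 CPM. Some of these rested on few cells: Rsad2 was found in 12.2% and Cxcl10 in 12.2% of Cd209a-only cells, the 10 mature DC-like cells described below held 69.1% of Fabp5 UMIs, and 5 cells held most Apoe, as given above.

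By counts of markers, a cell was put in a subset when it had a UMI of at least 3 genes of that subset's list. The 4 cells that met more than 1 list were given to the first of mature, cDC1, pDC and cDC2 that they met, so that a subset can hold fewer cells than met its list. This placed 20 cells as cDC1-like (15.4%, 9.66 to 22.8%), 24 as cDC2-like (18.5%, 12.2 to 26.2%), 10 as mature DC-like (7.69%, 3.75 to 13.7%) and 3 as pDC-like (2.31%, 0.478 to 6.60%), and left 73 unassigned. Many cells were near the threshold, with 11 at 2 markers, 2 at 3 and 8 at 4 or more of the mature list, and 47 at 2, 19 at 3 and 8 at 4 or more of the cDC2 list. For cDC1, 25 cells were at 2, 3 at 3 and 17 at 4 or more. Depth moved with the gate: cDC1-like cells had a median of 15348 UMIs and mature DC-like cells 8014, and after thinning to 2000 UMIs 9.23% were cDC1-like, 4.62% mature DC-like and 3.08% cDC2-like. Flt3 only was found in 17 of 20 cDC1-like, 9 of 10 mature DC-like and 4 of 24 cDC2-like cells, a description only, since the rule admits a cell without Cd209a only if it has Flt3. Xcr1 had 14 of its 15 UMIs in cDC1-like cells. The 3 pDC-like cells held 28 of 29 UMIs of Siglech, a receptor of pDCs, so that its value over all dendritic cells rests on them. The pDC list as a whole rests on them in part. Tcf4, its most abundant gene, had 10.6% of its UMIs in these cells and 61.25% in unassigned cells.

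Clustering of the 130 cells without the rule's genes gave 6 clusters, which are described by their leading genes and are not tested against each other. One of 22 cells was cDC1-like, with 6 of the 10 cDC1 markers among its 50 leading genes, and held 16 of the 20 cells placed by marker counts and 6 other cells. Its first genes were mostly those of dividing cells (Birc5, Ube2c, Top2a), with Itgae the first cDC1 marker among them. Ifi205, an interferon-inducible gene high in cDC1, was at 784 CPM (688 to 889) there, and no lower, at 807 CPM (589 to 1079.9), in the cluster of 6 cells led by interferon-stimulated genes that is described last. Wdfy4, needed for cross-presentation, was at 448 CPM (377 to 529) in the cDC1-like cluster, and Irf8 at 613 CPM (529 to 706). The same cluster held most cell cycle UMIs, 68.3% of those of the list, with Top2a, the DNA topoisomerase of dividing cells, in 7 of its cells and Mki67 in 5. Cells placed as cDC1-like by marker counts held 27.8% of the Top2a UMIs and the cluster 95.9%, so that most lay in its 6 other cells. By the same counts cDC2-like cells held 42.3% of the Top2a UMIs, in 3 cells, and unassigned cells 29.9%. Its median depth, 15424 UMIs, was the highest of the 6.

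A cluster of 15 cells was mature DC-like, with 5 of 9 markers among its leading genes, and held 9 of the 10 cells placed by marker counts. Ccr7 was at 1635 CPM (1425 to 1867) in 13 of them, against 180.2 CPM in the next highest cluster, and Fscn1 at 836 CPM (688 to 1007). The T cell attractant Ccl22, at 218 CPM (146 to 314) in 5 cells, was higher there than in the other clusters. So were Il4i1, an amino acid oxidase, in 11 cells and Cd200, an inhibitory ligand, in 9. Ccl5, another T cell attractant, was at 1537 CPM (1333 to 1763) in 11 cells. Its interval overlapped that of the smallest cluster, described last, at 1255 CPM (979 to 1586) in 2 cells. Fabp5 reached 5650.4 CPM (5253 to 6069.6), and Relb, a factor of dendritic cell maturation, 256 CPM (177 to 358). The co-stimulatory and co-inhibitory ligands summed to 1273 CPM, against 1793 in the smallest cluster, 1261 in the cluster of 30 cells described below and 700 to 842 in the others. By marker counts, Cd86 was at 190 CPM (109 to 308) in mature DC-like cells and 276 CPM (220 to 342) in cDC2-like cells. Ccr2, at 45.2 CPM, and Cd14, at 7.53, were lower than in the other clusters, though the chemokine receptor list summed to 1876 CPM, the highest of the clusters. In the 10 cells placed as mature DC-like by marker counts, Cd14 was at 332 CPM, all from 1 cell. Il1b, at 1529 CPM, lay in the range of the other clusters (768 to 1791). Flt3 without Cd209a was found in 12 of the 15 cells.

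Another cluster, of 31 cells, was monocyte and macrophage-like by its leading genes, among them Thbs1, Vcan, Apoe and Trem2, so that for these cells the markers go against the label. It held 55.5% of the UMIs of the monocyte and macrophage markers, its cells had a median of 6 of the 12, and Lyz2 was at 5329.7 CPM (5089 to 5579). Most of the Cxcl2 of the dendritic cells was in this cluster, 87.6% of its UMIs, at 2694 CPM (2523 to 2873). H2-Oa was at 14.5 CPM (4.71 to 33.9) there and from 51.4 to 341 CPM in the other clusters. H2-DMb2, at 17.4 CPM, and Kit, at 0, were not low in this cluster alone, since H2-DMb2 was at 17.1 in the cluster led by Ly6c2 and at 32.3 in the cDC1-like cluster, and Kit had no UMI in the cluster of 6 cells either.

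A further cluster, of 30 cells, was led by Siglece, Tnfsf4 and Vegfa. It held 13 of the 24 cDC2-like cells but had only 2 cDC2 markers, Mgl2 and Tnip3, among its leading genes and was left unnamed. Mgl2 was at 265 CPM (214 to 324) in 7 cells, Clec10a at 574 CPM (498 to 659) in 24, and Siglece, an inhibitory sialic acid receptor, had a UMI in 17. Both Flt3 and Cd209a were found in 17 of its cells, and its median class II level was 339 per 10000. A cluster of 26 cells was led by Ly6c2 and Cd7. Cd7 was at 437 CPM (356 to 531) in 18 of them and Clec10a in 22, Mgl2 was at 0, and class II was lowest, at a median of 184 per 10000. Id2, a factor of conventional dendritic cells, had no UMI in this cluster, nor in the cluster of 6 cells, whose depth allows up to 53.8 CPM, against 163 to 497 CPM in the other 4 clusters. Ly6c2 was at 239.9 CPM (181 to 312), and 2 of the 3 pDC-like cells, which had Ly6c2 at 2292 CPM, lay in this cluster.

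The smallest cluster, of 6 cells, was led by Ifit3, Ifit1, Cxcl10 and Rsad2 and held 46.2% of the UMIs of the 15 interferon-stimulated genes. All 6 cells had Ifit1, at 861 CPM (635 to 1141), and no other dendritic cell did. Cxcl10, a T cell attractant induced by interferon, was at 3210.2 CPM (2757 to 3717) but in 3 cells only. Their class II level was the highest of the clusters, a median of 413 per 10000, and Fcgr1, an Fc receptor, was found in 5 of the 6. Without them the sum of interferon-stimulated genes ran from 366 to 1338 CPM over the other clusters, against 427 in the monocytes and 1038 in the macrophages.

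**Figure D4:**
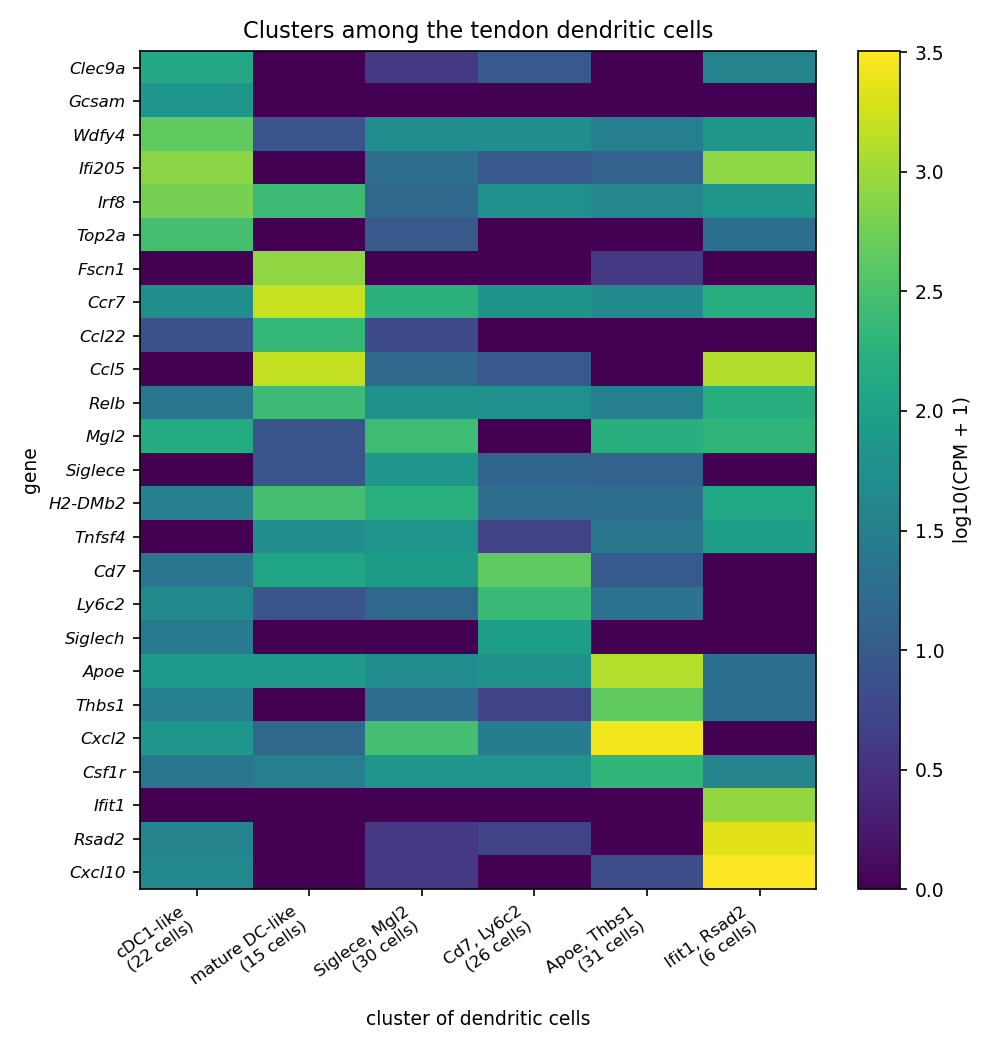
Rows are genes and columns are the 6 clusters of dendritic cells, named by marker list or leading genes, and colour gives log10(CPM + 1) of summed UMIs. Fscn1 and Ccr7 peak in the mature DC-like cluster of 15 cells, Top2a in the cDC1-like cluster of 22, Apoe and Cxcl2 in a cluster of 31 and Ifit1 in a cluster of 6. Most Top2a UMIs lay in cells not placed as cDC1-like by marker counts.

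The same rule found 13 of 2184 cells in blood (0.595%, 0.317 to 1.02%) and 12 of 1840 in bone marrow (0.652%, 0.337 to 1.14%), with median depths of 18164 and 12439.5 UMIs. Both shares and their intervals lay below that in the tendon, as shares of unsorted cells after different handling. By marker counts 6 of 12 marrow cells and 3 of 13 blood cells were pDC-like against 3 of 130 in the tendon, with Siglech at 954 CPM (818 to 1106) in marrow and 224 CPM (167 to 294) in blood against 20.3 CPM (13.6 to 29.1) in the tendon. The pDC-like interval of blood (5.04 to 53.8%) overlapped that of the tendon, and the cDC1-like share was 15.4% in blood and 15.4% in the tendon, the cDC2-like share 15.4% and 18.5%. In marrow 4 cells were cDC1-like and 1 cDC2-like. No blood or marrow cell was mature DC-like, which at these numbers allows shares of up to 24.7% and 26.5%.

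Ccr7, Cd83, Cd86, Il1b, Cxcl2 and Clec4n, picked after their values were seen, were higher at the tendon than in blood or marrow, where the tendon cells include the monocyte and macrophage-like cluster. That cluster held 87.6% of the tendon cells' Cxcl2 UMIs, 26.3% of Il1b, 14.7% of Cd83, 13.4% of Cd86 and 4.45% of Ccr7, and its part in these differences was not tested. Ccr7 had no UMI in the blood or marrow cells, which allows up to 12.9 and 16.4 CPM, against 235 in the tendon. Cd83 was at 309 CPM (281 to 339) in the tendon, against 12.9 CPM (2.66 to 37.7) for blood and 16.4 CPM (3.37 to 47.8) for marrow. Cd86 followed the same order of size, at 219, 25.8 and 27.3 CPM, blood and marrow not apart by their intervals. Il1b was at 1362 CPM in the tendon against 17.2 CPM (4.69 to 44.1) for blood and 5.45 CPM (0.138 to 30.4) in marrow, and Cxcl2 had no UMI in either. Clec4n (dectin-2), a receptor for fungal sugars, was at 118 CPM in the tendon and had 1 UMI in blood and 2 in marrow. Beside these, immediate early genes also differed between the libraries, Fosb standing at 500.1 CPM in the tendon, 12.9 in blood and 0 in marrow, and Junb at 1705, 387 and 207, and the part of enzymatic digestion in the result was not tested.

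Irf8, Bcl11a and Tcf4, also picked after their values were seen, were lower at the tendon. Irf8 was at 181 CPM (159.6 to 204) in the tendon, 589.8 CPM (495 to 697) for blood and 2028 CPM (1827 to 2245) in marrow, and Bcl11a, a factor of pDC development, at 21.0, 202 and 463 CPM. Tcf4, the pDC regulator also found widely in the tendon, was at 112, 301 and 719.5. These higher values move with the larger pDC-like share of the blood and marrow cells, and the part of that share in the result was not tested. Cd209d, a relative of Cd209a, was at 18.2 CPM (11.9 to 26.6) in the tendon against 133 CPM (90.7 to 189) for blood and 245 CPM (179 to 328) in marrow. By contrast, Ccr2 differed less, at 504 CPM (468 to 542), 589.8 CPM (495 to 697) and 491 CPM (394 to 603), with overlapping intervals, and Clec10a was alike in tendon and blood within counting error and lower in marrow, at 348, 327 and 76.3 CPM.

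**Figure D5:**
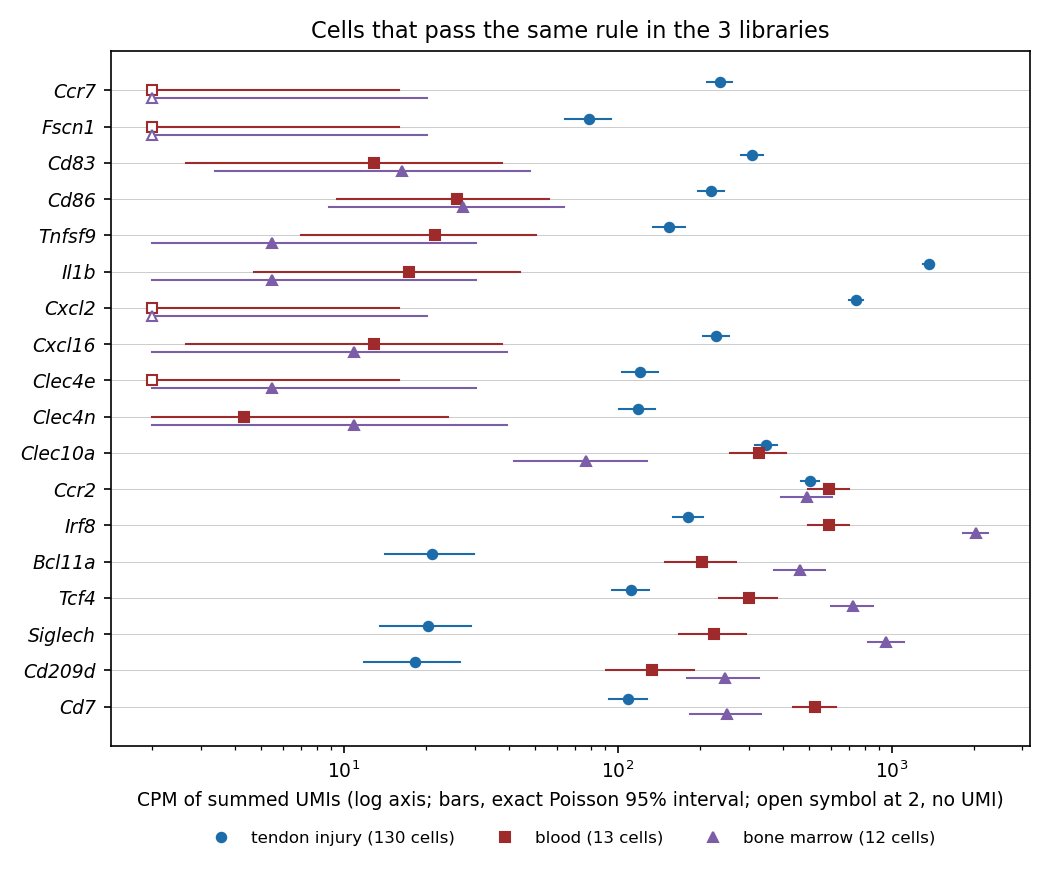
CPM of summed UMIs on a log x axis for 18 genes in the cells that passed the rule in the tendon injury library (circles, 130 cells), blood (squares, 13) and bone marrow (triangles, 12), with exact Poisson 95% intervals cut at the left edge and open symbols for 0 UMIs. Ccr7, Cd83, Il1b and Cxcl2 are highest at the tendon, whereas Irf8, Bcl11a, Tcf4 and Siglech are highest in marrow.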

How the data were processed

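Single-cell RNA-seq (10x Genomics 3′ v3) was examined in 3 libraries, tendon injury site, blood and bone marrow, with 1 library per tissue. The deposited values are UMI counts per gene and cell, unnormalised, for 27998 genes, which per the file headers came from the authors' run of Cell Ranger 5.0.1, on mm10 per the submitters' processing notes. Library totals and depth per cell are given in the results. No column held per-sample values of other samples.

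Cells with at least 200 genes and at most 20% mt- UMIs were kept, doublets included. The automatic threshold of Scrublet (in scanpy 1.11.5) called 0 of 4978 tendon cells, so as an alternative the 198 with the highest scores were removed (0.8% per 1000 cells), 1 of them a dendritic cell. UMIs were summed per group of cells and divided by the group's total (CPM). Since cells of 1 library are not replicates, no test was run: a gene counted as higher or lower past 2-fold, among genes with at least 20 UMIs in both groups together, with the 95% interval of the exact binomial split beside the ratio. The interval recovered the known ratios of counts simulated with counting error alone, which is what it assumes. Spread between cells was not simulated, so its coverage there is not known. Levels have exact Poisson and shares exact Clopper-Pearson 95% intervals, and a group with 0 UMIs was set to 3 counts. For shares of cells with a UMI each cell was thinned to 2000 UMIs, which left out no dendritic cell and 12 fibroblast-like cells. Clusters were made by Leiden (resolution 0.5, 10 neighbours, 20 components, 2000 variable genes) on cells without the rule's genes, and a name was given only for at least 3 markers of 1 list among the 50 leading genes.

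Genes named by size were the 10 largest and 10 smallest ratios of a comparison among genes with at least 100 UMIs in both groups together and a UMI in 10% or more of cells of the higher group, without rule genes, mt- genes and unnamed models; 1 of those lower than in monocytes is not reported here. The other genes are examples of the listed groups, and leading genes of a cluster, the genes by tissue and some examples were picked after their values were seen. The cells, lists and comparisons were chosen with earlier results of these data known. Clec6a, Clec7a, Trac and Trbc2 were not found under these names, and Acod1 is listed as Irg1. Alternatives changed the filters, thresholds, divisor, centring, weighting of cells and marker counts. Analyses used Python 3.11.15, numpy 2.4.6, scipy 1.17.1 and pandas 2.3.3.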

Additional observations from a re-analysis of the deposited data

How the results depend on the processing

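The number of dendritic cells was 88 with at least 2 UMIs of Flt3 and Cd209a in place of 1, and between 125 and 142 under the other filters and thresholds tried. With ratios centred on the median of all genes, 1269 genes in place of 786 were higher than in macrophages. With genes of at least 50 UMIs only, fewer genes were tested, and the counts were 178 higher and 322 lower against the class II-high cells, and 119 and 73 for Flt3-only against Cd209a-only cells, where 292 were higher with the interval off equality, alternatives chosen after seeing the data. Subset shares moved with the number of markers, with depth and with clustering. With at least 2 markers 30% of dendritic cells were cDC1-like, 27.7% cDC2-like, 16.2% mature DC-like, 6.92% pDC-like and 19.2% unassigned, and with at least 4 markers 6.15% were cDC2-like and 72.3% unassigned. After thinning to 2000 UMIs 9.23% were cDC1-like, 3.08% cDC2-like and 80.8% unassigned. By named clusters 0% were cDC2-like, 0% pDC-like and 71.5% had no subset name. Thinned to 1000 in place of 2000 UMIs, Ccr7 was found in 11.5% and Clec10a in 22.3% of cells. Of 490 list medians under an alternative, 434 stayed within 1.5-fold, 54 moved further and 2 of those past 2-fold reversed: that of the pDC markers against monocytes, which rests on few cells, was -0.97 with class II of at least 60 per 10000, in place of 6.93, and that of the keratinocyte markers against macrophages was 0.44 with doublets removed, in place of -1.97. The limit of 60 leaves out the pDC-like cells at 33.4 and 37.1 class II UMIs per 10000 and keeps that at 69.7. The part of these cells in the pDC reversal and the cause of the keratinocyte reversal were not tested. Another 12 changes of sign were in medians within 2-fold, among them the chemokine receptors in the 67 cells with fewer than 4 monocyte and macrophage markers, at -0.66 in place of 0.37 against monocytes and -0.31 in place of 0.41 against macrophages. Of 400 values of genes named by size, 389 stayed within the counting interval, 11 moved further and none reversed. With 1 library per tissue, no library could be left out and no paired analysis was possible.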
